A study of Mus musculus with 9 samples.

Results

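The chemokine genes described here were the CC chemokines Ccl2, Ccl3, Ccl4, Ccl5, Ccl6, Ccl7, Ccl9 and Ccl20 and the CX3C chemokine Cx3cl1 (fractalkine). They were taken by gene name from one expression table, and they were 9 of its 31167 genes. The table held primary tubular epithelial cells isolated from the kidneys of C57BL/6 mice, with 3 libraries of total RNA in each of 3 groups, and it served to find the genes that moved with EGR1, an early-response zinc finger transcription factor, and with injury in culture. The Sham group was the negative control. The H/R group (hypoxia and reoxygenation, a culture model of ischemia and reperfusion) was kept without glucose at 1.0% oxygen for 6 h and then returned to complete medium for 18 h. The EGR1OV group carried an Egr1 expression plasmid driven by the CMV promoter, which is active in most cell types, introduced with the reagent EndoFectin Max. The study describes the Sham cells as untreated and lists H/R and the plasmid as separate treatments, with no empty-vector group, so the plasmid DNA, the transfection and the Egr1 insert cannot be told apart. Nothing in the labels says that the 3 libraries of a group came from separate cultures, so the p-values measure the spread between these libraries, which may be technical.

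Chemokines are small secreted proteins that guide the movement of leukocytes through G protein-coupled receptors. CC chemokines carry adjacent cysteines near the start of the mature protein, whereas in the CX3C chemokine other residues lie between these cysteines and the chemokine domain sits on a mucin-like stalk anchored in the membrane. In the injured kidney, tubular cells are a known source of Ccl2 and Cx3cl1, and many chemokine genes are transcribed through NF-κB and interferon regulatory factors.

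The class of each gene can be read in its coding sequence. The following windows are shown to mark the feature that defines the family, with the codons of the cysteines in capitals and 18 coding bases on either side, read from GENCODE M21 transcripts on the gene's own strand of GRCm38. The Ccl2 window was at chr11:82036488-82036529 (+, exon 2 of 3), the Ccl5 window at chr11:83529224-83529265 (−, exon 2 of 3) and the Cx3cl1 window at chr8:94778033-94778083 (+, exon 2 of 3), while the Ccl20 window ran across the junction of exons 1 and 2 between chr1:83116899-83117836 (+). In the CC genes the capitals form 1 run, and in Cx3cl1 they are split.
Ccl2: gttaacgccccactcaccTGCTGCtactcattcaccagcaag
Ccl5: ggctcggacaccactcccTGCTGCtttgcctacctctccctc
Ccl20: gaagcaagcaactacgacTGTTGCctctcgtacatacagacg
Cx3cl1: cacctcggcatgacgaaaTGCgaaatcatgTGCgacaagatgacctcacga

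Values are FPKM, the fragments counted on a gene scaled to its exon length and to the depth of the library, so that levels can be set side by side between genes. Between 16183609 and 18384018 reads per library could be recovered from the steps in these values, a ratio of 1.14. The plasmid was checked first: Egr1 was at 6.20, 6.91 and 6.09 FPKM in Sham, 8.57, 7.59 and 7.48 after H/R and 45.7, 42.2 and 40.1 with EGR1OV, without overlap of the groups. The summed level of 18 tubule markers was 2121 to 2167 FPKM in the Sham libraries and 1966 to 2050 after H/R. With the plasmid it was 1393 to 1506. Of 12 tested, 1 rose (Epcam) and 6 fell in EGR1OV, beside 9.87% and 6.51% of all tested genes. The epithelial keratin Krt8 went from a mean of 1013 FPKM in Sham to 618 in EGR1OV, while Pax8 was between 11.8 and 13.7 FPKM in all libraries. Among markers of differentiated nephron segments, the proximal tubule genes Lrp2 and Aqp1 fell in EGR1OV, from 3.51 to 3.67 FPKM in Sham to 1.19 to 1.28 for Lrp2 and from 1.23 to 1.43 FPKM to 0.275 to 0.489 for Aqp1. Cubn was at 0.356 to 0.572 FPKM, Slc34a1 was at most 0.036, and Slc22a6 and Umod were listed at 0. Transcripts of other cell types were also measured, since bulk RNA cannot separate fewer cells of a type from less RNA per cell. The summed level of 20 macrophage markers, each of them above 0 in at least 1 library, was 174 to 179 FPKM in Sham, 148 to 158 in the H/R libraries and 50.2 to 59.3 with EGR1OV. The sums of the endothelial list (10 genes) were 16.8 to 17.6, 17.1 to 18.3 and 13.6 to 14.5 FPKM in the same order, those of the fibroblast list (9 genes) 37.7 to 39.5, 45.6 to 46.3 and 42.7 to 47.2, those of the T and NK cell list (6 genes) 2.80 to 3.87, 2.17 to 3.02 and 2.61 to 3.95, and those of the neutrophil list (5 genes) at most 0.403.

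The monocyte attractants Ccl2 and Ccl7, the main ligands of the receptor CCR2, rose steeply with the Egr1 plasmid. Ccl2 (chr11:82035571-82037453, +) was measured at 4.65, 3.63 and 3.99 FPKM in Sham, 5.97, 6.55 and 7.63 after H/R and 132, 141 and 121 with EGR1OV. Every EGR1OV library thus lay far above the others, and the H/R libraries lay above the Sham libraries without overlap. Mean Ccl2 was 4.09 ± 0.517 FPKM in Sham, 6.72 ± 0.841 after H/R and 132 ± 10.2 with EGR1OV (SD, n = 3). In a limma fit over all tested genes on log2(FPKM + 1), Ccl2 rose by 4.71 ± 0.095 (SE, adjusted p = 4.08e-10) in EGR1OV, a 32.2-fold ratio of mean FPKM. It also rose after H/R, by 0.60 ± 0.095 (SE, adjusted p = 0.00595), a ratio of 1.64. Of the 9 genes only Ccl2 and Cx3cl1 rose in both comparisons, which share the Sham libraries.

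Ccl7 (chr11:82045712-82047525, +) is the neighbour of Ccl2 on the same strand. It was at 1.21, 1.07 and 0.681 FPKM in Sham, 1.62, 1.22 and 1.34 after H/R and 31.2, 31.2 and 26.3 with EGR1OV. The EGR1OV libraries stood apart, whereas the highest Sham and the lowest H/R value nearly met. Ccl7 rose by 3.95 ± 0.11 (SE, adjusted p = 4.35e-09) in EGR1OV, from 0.990 ± 0.277 to 29.6 ± 2.80 FPKM (SD, n = 3), a 29.9-fold ratio close to that of Ccl2. After H/R its log2 difference was 0.27, with a 95% interval of 0.020 to 0.53 for that gene alone and an adjusted p of 0.149 by limma. The receptor gene of this pair, Ccr2, was at most 0.045 FPKM in any library and was below the limit for testing.

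**Figure D1:**
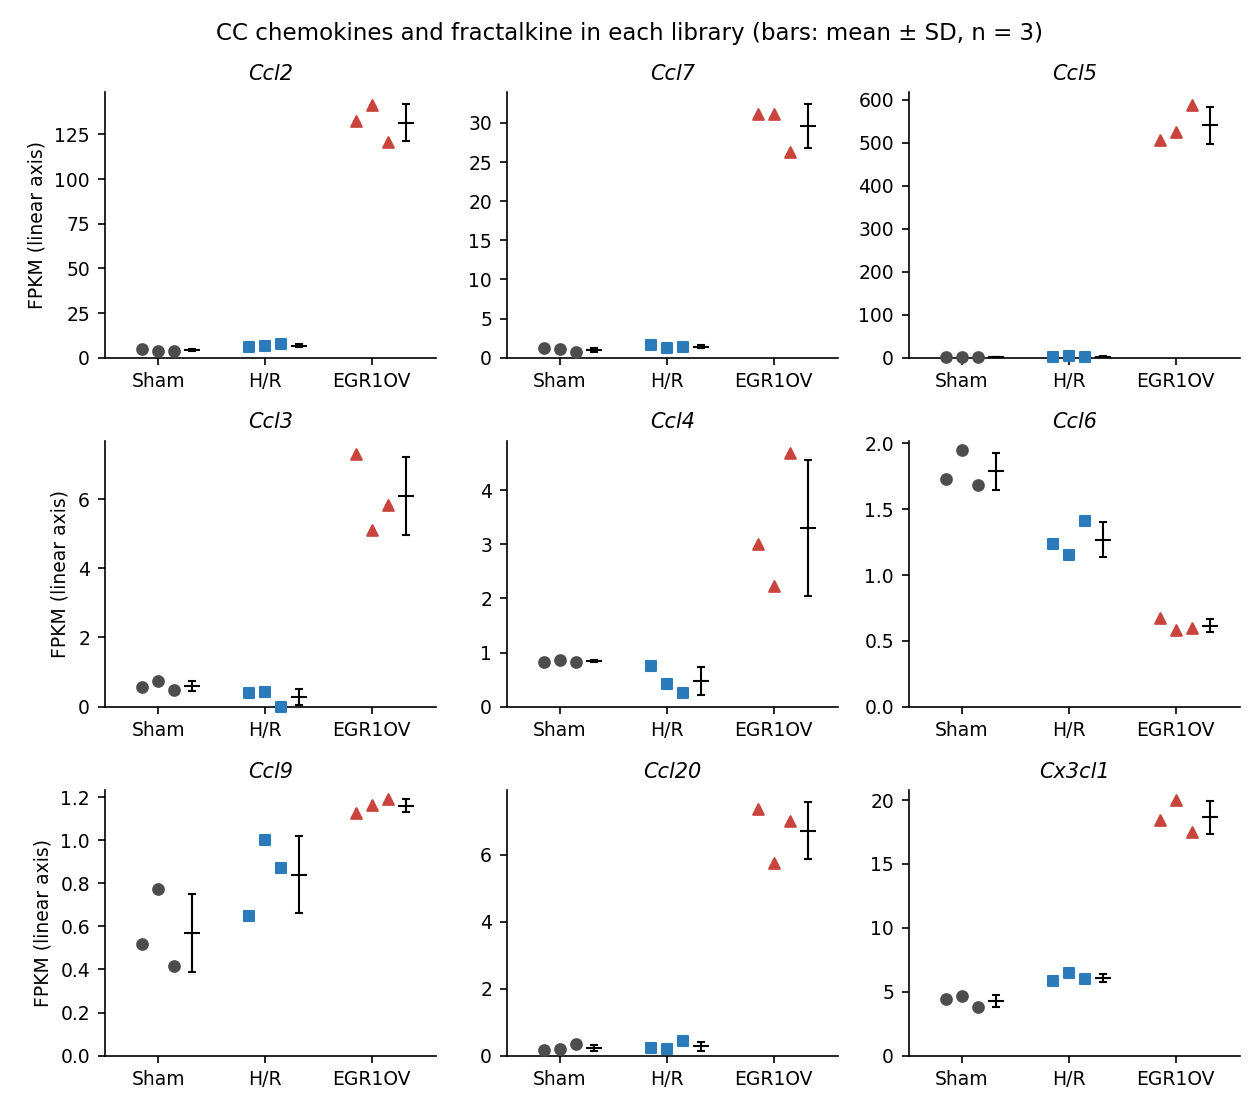
FPKM (vertical axis, linear, starting at 0) of the 9 genes in the 3 libraries of Sham (circles), H/R (squares) and EGR1OV (triangles), with the group mean ± SD beside the points (n = 3). EGR1OV points lie above all others for 8 genes and below all others for Ccl6; H/R points overlap the Sham points for Ccl5, Ccl9 and Ccl20.

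Ccl5, Ccl3 and Ccl4 draw T cells, monocytes and NK cells. Ccl5 (RANTES; chr11:83525778-83530518, −) changed by more than any other of these chemokine genes. Its level was 1.77, 1.91 and 1.39 FPKM in Sham, 1.80, 3.46 and 1.70 after H/R and 507, 526 and 589 with EGR1OV. Sham and H/R libraries overlapped, with H/R replicate 2 above the rest, and the EGR1OV libraries stood far above all of them. The mean went from 1.69 ± 0.271 FPKM in Sham to 541 ± 42.8 in EGR1OV (SD, n = 3), a ratio of 319.6 and a log2 change of 7.65 ± 0.17 (SE, limma, adjusted p = 7.91e-10). Behind these values stood 22 to 32 reads per Sham library and 8083 to 9512 reads per EGR1OV library. After H/R the difference was 0.27 (95% interval -0.12 to 0.66, limma, adjusted p = 0.348), so a change of Ccl5 was not shown there.

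Ccl3 (MIP-1α; chr11:83647844-83649355, −) was at 0.556, 0.749 and 0.475 FPKM in Sham, 0.403, 0.426 and 0 after H/R and 7.31, 5.11 and 5.82 with EGR1OV. No read was counted in H/R replicate 3, where 3 reads would have given 0.221 FPKM, and the other Sham and H/R libraries held at most 10 reads. Ccl3 rose by 2.14 ± 0.16 (SE, limma, adjusted p = 4.26e-06) in EGR1OV, where 64 to 93 reads were counted. All 3 H/R libraries were below all 3 Sham libraries, but the log2 difference of -0.33 (95% interval -0.69 to 0.021) did not pass the test (limma, adjusted p = 0.202).

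Ccl4 (MIP-1β; chr11:83662584-83664683, +) lies next to Ccl3 on the opposite strand. It was at 0.829, 0.869 and 0.826 FPKM in Sham, 0.749, 0.412 and 0.256 after H/R and 3.01, 2.22 and 4.68 with EGR1OV. Its EGR1OV libraries varied most among the 9 genes, with a coefficient of variation of 38.0%, but did not overlap the other groups. The rise in EGR1OV was 1.19 ± 0.19 (SE, limma, adjusted p = 0.000807), a 3.93-fold ratio against 10.3 for Ccl3. In H/R the log2 difference was -0.34 (95% interval -0.77 to 0.096, limma, adjusted p = 0.290), with 3 to 8 reads per library.

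Ccl6 and Ccl9 are rodent CC chemokines of the CCR1 branch that are made by myeloid cells. They lie next to each other on the minus strand and went in opposite directions. Ccl6 (chr11:83587882-83593087) was at 1.73, 1.95 and 1.69 FPKM in Sham, 1.24, 1.15 and 1.41 after H/R and 0.671, 0.579 and 0.596 with EGR1OV. The 3 groups were fully separated, in falling order, with 50 to 61, 36 to 45 and 17 to 20 reads per library. Ccl6 was the only 1 of the 9 genes to fall in EGR1OV, with a log2 change of -0.79 ± 0.071 (SE, limma, adjusted p = 1.87e-05), which is 2.91-fold lower. After H/R it fell by 0.30 on the log2 scale (limma, adjusted p = 0.0294), which is 1.41-fold lower. This last call was lost without any 1 of the 3 Sham libraries (adjusted p = 0.0672, 0.0956 and 0.0601 for replicates 1, 2 and 3) and without H/R replicate 1 or 2 (0.0734 and 0.0905), as well as with no filter on low values (0.0833), with limma-voom on the recovered reads (0.0756) and with Sham and H/R fitted alone (0.0535). In EGR1OV, 13 of the 16 tested macrophage markers fell as well and Cd14 rose, while after H/R 2 fell (Adgre1 and Lyz2). Over all tested genes 6.51% were called lower in EGR1OV and 2.65% after H/R. The part of macrophage RNA in the level of Ccl6 was not tested.

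Ccl9 (chr11:83572919-83578636, −) was at 0.519, 0.772 and 0.418 FPKM in Sham, 0.649, 1.00 and 0.870 after H/R and 1.13, 1.17 and 1.19 with EGR1OV. The EGR1OV libraries were tightly grouped above all others, whereas Sham and H/R overlapped. The rise in EGR1OV was the smallest of the 8, at 0.47 ± 0.10 (SE, limma, adjusted p = 0.00487), a 2.04-fold ratio of mean FPKM. Against H/R the EGR1OV libraries were higher by 0.24, which did not pass the test (limma, adjusted p = 0.0839). The summed level of the macrophage markers fell in EGR1OV while Cd14 among them rose, and which cells made the Ccl9 transcript was not tested. Ccr1, the receptor gene of this branch, fell in EGR1OV from 1.76 to 2.57 FPKM in Sham to 0.189 to 0.298 (log2 change -1.27).

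Ccl20 (MIP-3α; chr1:83116766-83119167, +) is the chemokine ligand of CCR6 and attracts dendritic cells and Th17 cells. It was at 0.171, 0.202 and 0.341 FPKM in Sham, 0.217, 0.191 and 0.436 after H/R and 7.37, 5.77 and 7.03 with EGR1OV. Only 4 to 8 reads per Sham library and 5 to 11 per H/R library lay behind the low values, against 134 to 174 in EGR1OV. It rose by 2.64 ± 0.11 (SE, limma, adjusted p = 6.29e-08) in EGR1OV, a 28.2-fold ratio of mean FPKM that the log2(FPKM + 1) scale understates. The H/R difference of 0.047 (95% interval -0.19 to 0.29) did not pass the test (limma, adjusted p = 0.822). Like Ccl3, whose mean over Sham and H/R was 0.435 FPKM, Ccl20 (0.260) reached the limit for testing, a mean of 0.5 FPKM over all libraries, only through EGR1OV.

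Fractalkine, Cx3cl1 (chr8:94772009-94782427, +), holds CX3CR1-bearing monocytes and T cells at the cell surface and is shed by the proteases ADAM10 and ADAM17. It had the highest mean of the 9 genes in Sham, beside Ccl2, at 4.43, 4.68 and 3.79 FPKM, and was at 5.83, 6.45 and 6.00 after H/R and 18.5, 20.0 and 17.5 with EGR1OV. The 3 groups did not overlap and stood in rising order. Cx3cl1 rose after H/R by 0.42 ± 0.071 (SE, limma, adjusted p = 0.00755), a ratio of 1.42, and in EGR1OV by 1.89 ± 0.071 (SE, limma, adjusted p = 3.73e-08), a ratio of 4.33. With 246 to 1283 reads per library it was counted more deeply outside EGR1OV than any other of these genes. Its receptor gene Cx3cr1 fell in EGR1OV, from 1.16 to 1.88 FPKM in Sham to 0.040 to 0.095 (log2 change -1.28).

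Promoter sequences from RefSeq (GRCm38.p6, 250 bases before to 50 after the start) were matched for Ccl3, Ccl6, Ccl9, Ccl20 and Cx3cl1, which were 5 of the 9 genes; Ccl2, Ccl4, Ccl5 and Ccl7 were not matched. Motifs were searched on both strands with any overlap: GCGNGGGCG (the core bound by EGR1), GGG and CC parted by any 5 bases (a loose NF-κB motif), GAAA repeated after any 2 bases (a loose interferon response element), TATAAA and GGGCGG (the GC box). The following sequences show 2 genes that rose and the 1 that fell in EGR1OV, with all matches in capitals.
Ccl20, chr1:83116516-83116815 (+): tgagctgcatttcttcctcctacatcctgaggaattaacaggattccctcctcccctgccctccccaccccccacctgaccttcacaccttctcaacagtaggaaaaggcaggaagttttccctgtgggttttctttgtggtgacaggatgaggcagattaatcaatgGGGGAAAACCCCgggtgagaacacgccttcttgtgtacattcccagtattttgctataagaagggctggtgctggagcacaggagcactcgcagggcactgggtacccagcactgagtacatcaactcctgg
Cx3cl1, chr8:94771930-94772229 (+): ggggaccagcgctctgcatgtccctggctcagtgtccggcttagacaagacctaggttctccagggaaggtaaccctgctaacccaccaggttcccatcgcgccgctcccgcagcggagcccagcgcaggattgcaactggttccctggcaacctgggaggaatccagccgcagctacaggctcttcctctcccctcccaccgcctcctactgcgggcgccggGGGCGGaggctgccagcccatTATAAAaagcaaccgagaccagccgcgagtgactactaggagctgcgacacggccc
Ccl6, chr11:83593038-83593337 (−): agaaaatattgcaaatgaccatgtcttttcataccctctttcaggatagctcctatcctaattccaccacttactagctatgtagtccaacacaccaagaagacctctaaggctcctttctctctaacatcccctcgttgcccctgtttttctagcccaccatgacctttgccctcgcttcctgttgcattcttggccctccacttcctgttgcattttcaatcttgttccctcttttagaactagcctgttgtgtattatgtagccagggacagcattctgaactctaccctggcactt

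In Ccl20 the capitals are 3 overlapping matches to the loose NF-κB motif, whose first bases lie at -82, -81 and -80 from the start. In Cx3cl1 they are GGGCGG with its first base at -27 and TATAAA at -6 from the RefSeq start. The Cx3cl1 window begins at 94771930 and the gene given above at 94772009, so most bases before the RefSeq start lie inside that gene. In Ccl9 the loose NF-κB motif was found at -35 and TATAAA at -224, -94 and -92, and in Ccl3 and Ccl6 no match was found. GCGNGGGCG and the interferon element were in none of these 5 windows. Among 32851 promoters of the same length, 5.55% held GCGNGGGCG, 50.8% the NF-κB motif, 3.44% the interferon element, 13.6% TATAAA and 35.7% GGGCGG. A match describes the letters only, and its absence says only that these letters are not in this window.

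Across the 9 genes, 8 were called higher and 1 lower in EGR1OV against Sham (adjusted p under 0.05 by limma and at least 1.3-fold on the log2(FPKM + 1) scale), when 9.87% of the 13985 tested genes were called higher and 6.51% lower. After H/R, for which the fold limit was 1.2, 2 were called higher (Ccl2 and Cx3cl1), 1 lower (Ccl6) and 6 neither, when 1.6% of all tested genes were called higher and 2.65% lower. Between EGR1OV and H/R, 7 were higher, 1 was lower and Ccl9 was neither, against 11.9% and 6.94% of all tested genes. Over the 9 genes the log2 change had a median of 2.14 with the plasmid and of 0.23 after H/R, beside 0.017 and -0.030 over all tested genes. Ccl3 and Ccl20, which are counted among the 8, entered the test only through EGR1OV. Their level there therefore had to lie above their mean over Sham and H/R. Of the other 7 genes, 6 were called higher and 1 lower in EGR1OV against Sham. The groups did not overlap for 9, 6 and 9 of the genes in EGR1OV against Sham, H/R against Sham and EGR1OV against H/R, when this held for 55.7%, 33.6% and 58.6% of all tested genes. With 3 libraries against 3, an exact two-sided permutation test of a single gene cannot give a p under 0.1, the value for each of these separated genes.

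**Figure D2:**
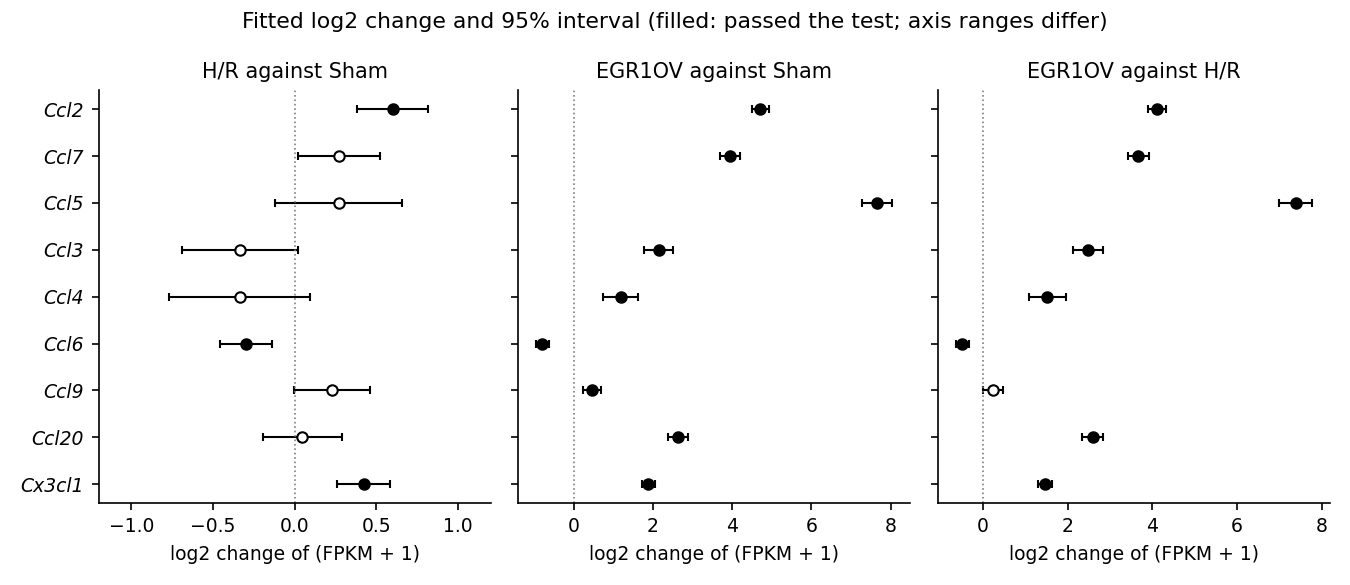
Log2 change of FPKM + 1 (horizontal axis) with its 95% interval from limma for each of the 9 genes in H/R against Sham, EGR1OV against Sham and EGR1OV against H/R; filled points passed the test, and the first panel has a narrower axis. After H/R only Ccl2, Cx3cl1 and Ccl6 are filled, between -0.30 and 0.60, while EGR1OV points reach 7.65 and only Ccl6 lies below 0.

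The order of the levels differed between the groups. In Sham, Cx3cl1 and Ccl2 came first, followed by Ccl6 and Ccl5, then Ccl7 and Ccl4, then Ccl3 and Ccl9, and last Ccl20; the libraries of the genes within each of these pairs overlapped. After H/R, Ccl2 and Cx3cl1 overlapped at the top, Ccl5 came next, then Ccl7 and Ccl6, which overlapped, and last Ccl9, Ccl4, Ccl20 and Ccl3, each overlapping the next. In EGR1OV the order was Ccl5, Ccl2, Ccl7, Cx3cl1, Ccl20, Ccl3, Ccl4, Ccl9 and Ccl6, and only the neighbours Ccl20 and Ccl3 overlapped. Ranked by mean FPKM among the genes above 0, Ccl5 moved from place 10867 of 25503 in Sham to place 46 of 25656 in EGR1OV, and Ccl2 from 8227 to 290. Ccl6 went from 10720 to 13468, while Ccl9 went from 13595 to 11917.

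The summed level of the 9 genes was 13.6 to 15.9 FPKM in the Sham libraries, 18.5 to 20.9 in the H/R libraries and 709 to 773 with EGR1OV. Ccl5 made up 11.2 ± 0.931% of the sum in Sham, 11.7 ± 4.28% after H/R and 73.1 ± 2.63% with EGR1OV (SD, n = 3). The share of Ccl2 was 27.2 ± 3.71%, 34.2 ± 4.06% and 17.9 ± 1.95%, and that of Cx3cl1 was 28.4 ± 0.974%, 31.0 ± 0.517% and 2.53 ± 0.241%, in the same order. Ccl2 and Cx3cl1 therefore held most of the sum in Sham and H/R, and Ccl5 in EGR1OV. Ccl6 went from 11.9 ± 0.848% in Sham to 0.0836 ± 0.0096% in EGR1OV.

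**Figure D3:**
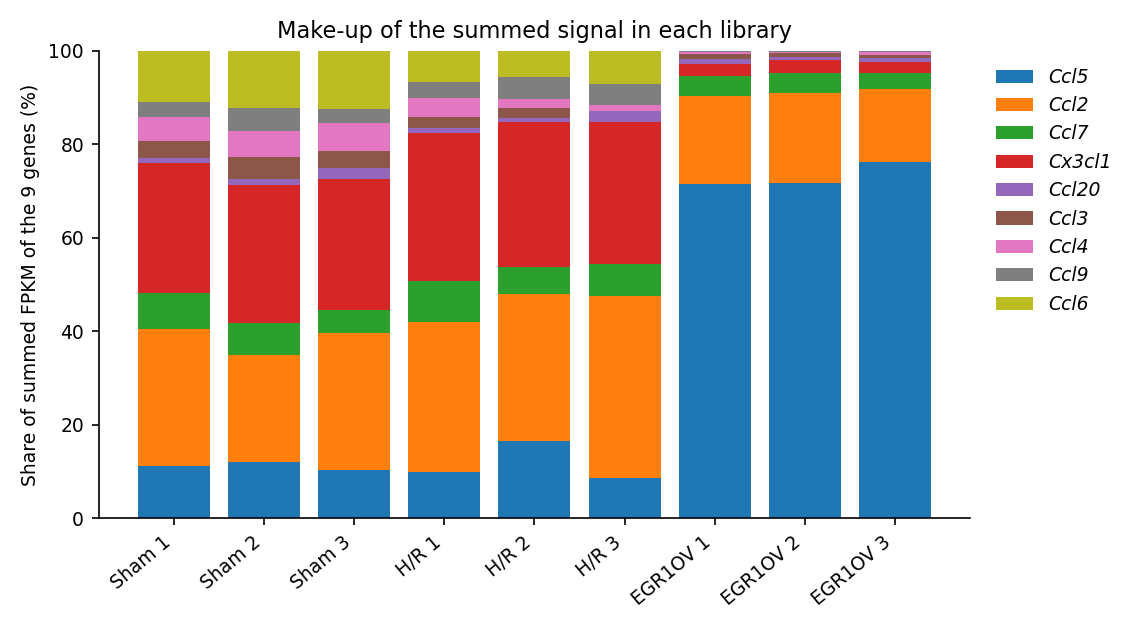
Share (%) of the summed FPKM of the 9 genes in each library, stacked to 100 with 1 colour per gene. Ccl5 takes 8.67 to 16.6% of the Sham and H/R columns and 71.6 to 76.2% of the EGR1OV columns.

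Of the 9 genes, 7 lie on chromosome 11 in 2 groups, Ccl2 with Ccl7 within 12.0 kb and Ccl5, Ccl9, Ccl6, Ccl3 and Ccl4 within 139 kb. In the second group, Ccl5, Ccl9, Ccl3 and Ccl4 rose in EGR1OV on either side of Ccl6, which fell. Within 200 kb of this group 8 genes that are not chemokines were tested. Of these 1 rose and 1 fell in EGR1OV, beside 9.87% and 6.51% of all tested genes. The gene that rose was Heatr9, the neighbour of Ccl5, which reached the limit for testing only through EGR1OV and so had to differ there. It was at 0 to 0.0324 FPKM in Sham, 0 to 0.116 in the H/R libraries and 1.90 to 2.57 with EGR1OV (log2 change 1.63, limma, adjusted p = 9.15e-07). The gene that fell was E230016K23Rik, a processed transcript that overlaps Ccl6 on the opposite strand, at 5.21 to 6.43 FPKM in Sham, 3.23 to 3.80 in the H/R libraries and 3.06 to 3.22 with EGR1OV. It fell in both comparisons, by 0.73 in EGR1OV and by 0.59 after H/R on the log2 scale (limma, adjusted p = 4.25e-05 and 0.00235). The exons of E230016K23Rik and Ccl6 shared 0 bases in GENCODE M21, although the sources used here do not say whether the libraries kept the strand. No other gene within 200 kb of Ccl2 and Ccl7 reached the limit for testing. These windows were chosen after the values were seen.

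**Figure D4:**
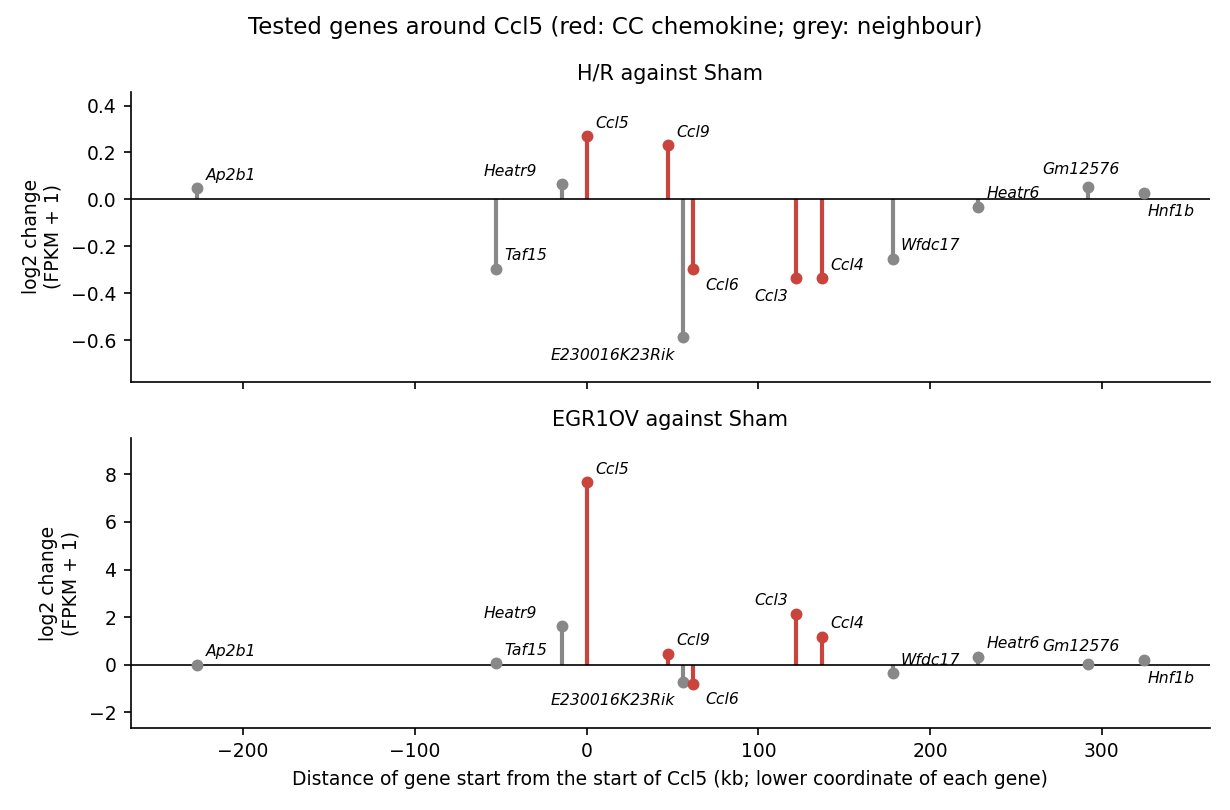
Log2 change of FPKM + 1 (vertical axis, with a different range in each panel) of the tested genes around Ccl5 after H/R and in EGR1OV, by distance in kb from the start of Ccl5 (horizontal axis); CC chemokines in red, other genes in grey. In EGR1OV the tall line of Ccl5 stands beside Heatr9 at 1.63, and Ccl6 and E230016K23Rik point down in both panels.

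Among the other CC chemokine genes, 9 of 13 listed were measured and 4 tested. In EGR1OV, Ccl17, a ligand of CCR4, rose from 0.592, 1.00 and 0.943 FPKM in Sham to 1.76, 3.81 and 3.35 (log2 change 1.07, limma, adjusted p = 0.00163). Ccl24, an eosinophil attractant, fell from 0.798, 0.842 and 0.936 FPKM to 0.0930, 0 and 0 (-0.85). Ccl25 and Ccl27a, whose near-identical copies make its reads uncertain, passed in neither direction. After H/R 0 of the 4 passed (1 at an unadjusted p under 0.05 by limma, 0 by limma-voom). Ccl22, which lies beside Cx3cl1 and Ccl17 on chromosome 8, was listed at 0 in Sham and H/R and at 0.544, 0.421 and 0.281 FPKM in EGR1OV, below the limit for testing. Of 16 receptor genes listed, 14 were measured and 3 tested. Besides Ccr1 and Cx3cr1, which fell, Ccrl2, an atypical receptor that binds chemerin, was at 0.140 to 0.375 FPKM in Sham and at 4.91 to 5.12 in EGR1OV (2.29), and it was tested only because of its level in EGR1OV. After H/R 0 of the 3 passed, and 0 had an unadjusted p under 0.05 by limma or a call by limma-voom.

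The CXC chemokines, which attract neutrophils and T cells, went in both directions. Of 10 tested, 6 rose and 4 fell in EGR1OV, beside 8 and 1 of the 9 genes above. Over all tested genes 9.87% were called higher there and 6.51% lower. In H/R against Sham 1 of the 10 rose and 2 fell, beside 1.6% and 2.65% of all tested genes. Of the 6, Cxcl2, Cxcl5 and Cxcl11 reached the limit for testing only through EGR1OV and had to differ there. Of the other 7 tested, 3 rose and 4 fell. Without Ccl3 and Ccl20, which also entered only through EGR1OV, 6 of the genes above rose and 1 fell, of 7. Cxcl10, a CXCR3 ligand induced by interferon, was at 5.83 to 6.62 FPKM in the Sham libraries, 8.71 to 9.73 in the H/R libraries and 264 to 268 with the plasmid, and rose in both comparisons (0.51 and 5.23), as Ccl2 did. Cxcl1 rose by 4.27 in EGR1OV. The platelet chemokine genes Ppbp and Pf4 fell in both comparisons, by 1.39 and 1.76 in EGR1OV and by 0.53 and 0.52 after H/R.

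Genes that act upstream of chemokine transcription were examined as a list. Of 18 transcription factors, kinases and inhibitors of the NF-κB and interferon pathways, 13 rose and 0 fell in EGR1OV. Their median log2 change there was 0.65, and 16 had an unadjusted p under 0.05 by limma. Over all 13985 tested genes, 9.87% were called higher and 6.51% lower, and 6417 had an adjusted p under 0.05 by limma. After H/R 3 of the 18 rose and 0 fell, beside 1.6% and 2.65% of all tested genes. There 7 had an unadjusted p under 0.05 by limma, and limma-voom on the recovered reads called 4. Irf7, the interferon regulatory factor that is itself induced by interferon, was at 0.556 to 0.942 FPKM in Sham and H/R and at 218 to 228 in EGR1OV. Cebpb rose by 1.92. The 3 genes that rose after H/R were the NF-κB subunits Nfkb2 (0.33) and Relb (0.30) and the inhibitor Nfkbia (0.29).

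Of the cytokine genes that can induce chemokines, 7 were tested and called higher in EGR1OV, but 4 of them (Tnf, Il1b, Il6 and Ifnb1) reached the limit for testing only through EGR1OV and had to differ there. The other 3, Il1a, Il18 and Lif, rose too. After H/R 0 of the 7 passed in limma, where 2 had an unadjusted p under 0.05, and limma-voom called 1 lower. Ifnb1 was listed at 0 in all Sham and H/R libraries and at 3.05, 3.02 and 1.90 FPKM in EGR1OV. Tnf was at 0.385 to 0.482 FPKM in Sham and at 4.50 to 5.08 in EGR1OV, and Il1a rose by 1.88. Of 8 genes that set the decay of chemokine transcripts, 3 rose in EGR1OV, led by Zc3h12a (2.35), an RNase that targets inflammatory mRNAs. Of these 8, 0 passed after H/R (1 at an unadjusted p under 0.05 by limma, 0 by limma-voom). Of 9 tested genes of chemokine processing and presentation, the syndecan Sdc3 (1.00) and the gelatinase Mmp9 (0.61) rose and Sdc2 fell by 0.45 in EGR1OV, and after H/R 0 passed (3 at an unadjusted p under 0.05 by limma, 0 by limma-voom). The Cx3cl1 sheddases Adam10 and Adam17 passed in neither direction. Over all tested genes, 9.87% were called higher and 6.51% lower in EGR1OV, and 1.6% and 2.65% after H/R.

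**Figure D5:**
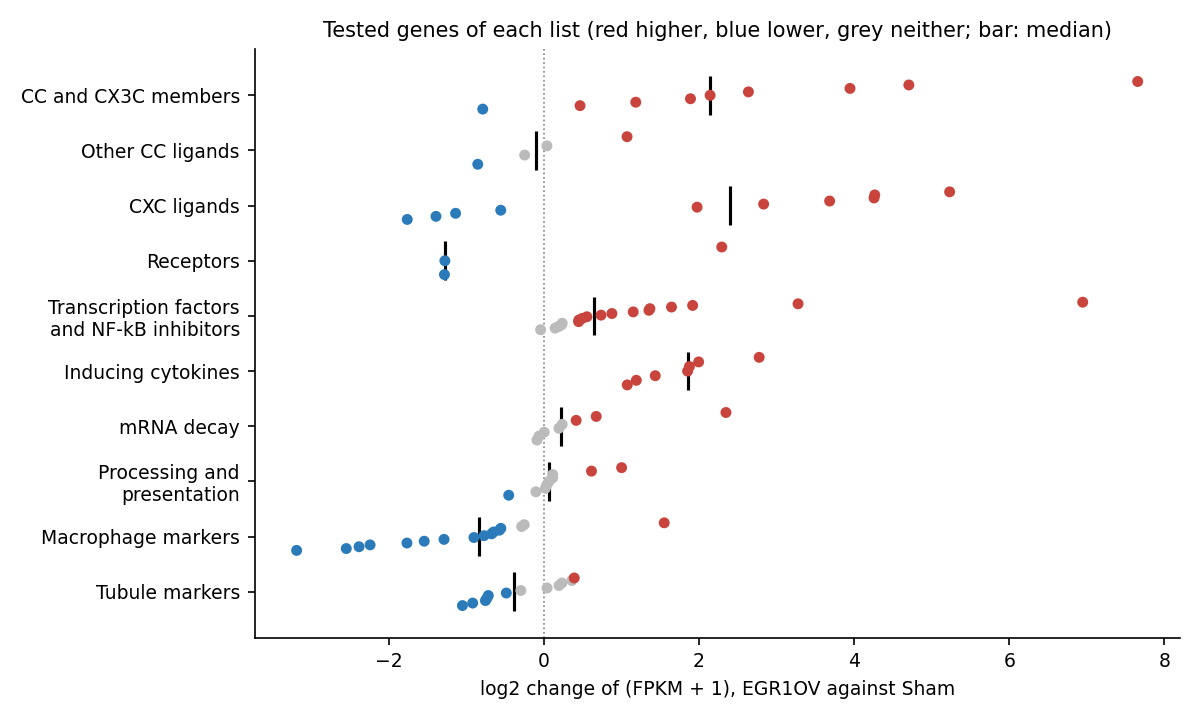
Log2 change of FPKM + 1 in EGR1OV against Sham (horizontal axis) of each tested gene of 10 lists (rows), with red points called higher, blue points called lower and grey points neither, and a bar at the median. The medians are 2.14 for the 9 genes described here, 2.40 for the CXC chemokines, 1.85 for the cytokines and -0.84 for the macrophage markers; without the 2, 3 and 4 genes tested only through EGR1OV, the first 3 medians are 1.89, -0.55 and 1.19.

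The genes whose profile was nearest to each chemokine were sought among the 7584 genes that averaged 5 FPKM or more. Nearness was the root mean square difference of log2(FPKM + 1), centred on Sham, over 9 libraries. This is a description, without a test. The added 1 shrinks the changes of genes at low FPKM, so near profiles can hide unlike ratios of FPKM. Ccl5 was nearest to Ifit1 (0.36), Isg15 (0.36) and Irf7 (0.52), and of these Isg15 stood at 4.86 FPKM in Sham and 869 in EGR1OV. Ccl2 was nearest to Ifi204 (0.30), H2-Q4 (0.32) and Cxcl10 (0.33), and Ccl7 to Ifi211 (0.22), C3 (0.23) and Oas3 (0.25). Ccl20 was nearest to Serpinb9 (0.10), Nmi (0.11) and B2m (0.12), Cx3cl1 to Fam167a (0.15), Trim12a (0.16) and Vcam1 (0.16), Ccl3 to Hap1 (0.20), Irf9 (0.21) and Gm6548 (0.21), and Ccl4 to Npc2 (0.24), Gla (0.25) and Plac8 (0.25). The 2 genes of smallest change had other neighbours. Ccl6 was nearest to Lpp (0.078), Rprm (0.11) and Hacd1 (0.11), and Ccl9 to Sox9 (0.086), Gng11 (0.092) and Rgs12 (0.094). Mean Sox9 was 13.1, 16.6 and 17.9 FPKM in Sham, H/R and EGR1OV. Mean Ccl9 was 0.570, 0.840 and 1.16 FPKM in the same order, a larger ratio of EGR1OV to Sham.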

How the data were processed

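The deposited values were FPKM per gene, which the authors computed from RNA-seq reads of 9 libraries; the other columns of the table held annotation. The submitters' processing notes name Bowtie2 2.2.3, HISAT2 2.1.0, TopHat2 and the build mm9, without roles, but 94.6% of gene positions equal GENCODE M21, so coordinates are given on GRCm38. Reads per library were recovered from FPKM and exon lengths (94.1% of 162853 values were whole within 0.02 reads); they cover counting error only. Genes that averaged 0.5 FPKM or more were tested on log2(FPKM + 1) with limma 3.58.1 (R 4.3.3; trended, 3 groups in 1 fit, no block), with Benjamini-Hochberg adjustment and fold limits of 1.3 for the plasmid and 1.2 for H/R, after the study's methods. The fit was tested on simulated data with known changes between EGR1OV and Sham. It called 66.7% of 1.5-fold, 87.1% of 2-fold and 96.5% of 4-fold changes with the right sign, and 6 unchanged genes. The simulated reads started from Sham means, with the same small extra spread for every gene. These rates therefore need not hold for genes whose libraries varied more, among them Ccl4, Ccl5 and Ccl9. Smaller changes were not simulated. Motifs, exons and figures used Python 3.11.15. Named genes were the 9 members, Egr1, and CC ligands and receptors. Added to these were up to 3 called genes of largest change per list and comparison, defining markers and the 3 nearest profiles per member. Cd14, Pax8, Cubn, Il18, Lif, Il6, Cxcl2, Cxcl5, Adam10, Adam17, Heatr9 and E230016K23Rik were added after their values were seen. Ifnb1, Krt8, Slc34a1, Slc22a6 and Umod were also named outside this rule. Members and lists were chosen with earlier results of these data known. Ccl11, Ccl19, Ccl21a, Ccl26, Ccr6, Ccr8, Cxcl15, Il17a and Ifng were listed but not analysed here. Alternatives changed the pseudocount, filter, scaling, block, trend, fold limit, groups fitted and libraries.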

Additional observations from a re-analysis of the deposited data

How the results depend on the processing

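The 8 rises and the fall in EGR1OV against Sham kept their direction under every alternative run, and their calls too except for Ccl6 and Ccl9 at a 2-fold limit. With a filter at a mean of 5 FPKM only 4 of the genes were tested and all 4 were called in both EGR1OV comparisons, and among all genes those called numbered 1315 (EGR1OV against Sham), 372 (H/R against Sham) and 1520 (EGR1OV against H/R), since fewer genes were tested. Without a fold limit they numbered 6417, 1635 and 7135, and with a 2-fold limit 484, 11 and 489, when 0 of the 9 genes were called after H/R; limma-voom on the recovered reads called 995 genes after H/R. The rises of Ccl2 and Cx3cl1 after H/R were lost only at 2-fold. The H/R difference of Ccl20 ranged from -0.037 (without H/R replicate 3) to 0.11 when 1 library was left out. The share of called genes that were higher was 60.3% in EGR1OV against Sham, 37.7% in H/R against Sham and 63.2% in EGR1OV against H/R as deposited, 54.4%, 57.5% and 50.9% after median-ratio scaling and 45.9%, 56.5% and 42.5% after quantile normalization. Correlations of deviations between libraries ran from -0.20 to 0.26 for the same replicate number and from -0.22 to 0.18 for different numbers. Deviations of 3 libraries from their own mean depend on each other, so these values cannot settle whether the numbers pair the libraries. With the replicate block 9, 2 and 8 of the genes were called, 2309, 516 and 2654 of all genes, and Ccl6 after H/R was lost (adjusted p = 0.0666). Genes at 0 to 11 reads per library (Ccl3, Ccl4 and Ccl20 in Sham and H/R) are limited by depth.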
